A study of Mus musculus with 21 samples.

Results

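Cytosolic nucleic acid sensors are the proteins with which a cell recognises RNA and DNA that look foreign or lie in the wrong place, together with the proteins that relay that signal or remove its trigger. Expression of 10 genes of this kind was followed, out of 24454 genes in the deposited table. They were picked by gene symbol: the RNA helicase sensors Ddx58, Ifih1 and Dhx58, the adaptors Mavs and Tmem173, the receptors Tlr3 and Zbp1, and the nucleic acid modifying enzymes Trex1, Samhd1 and Adar. Earlier results of these data were known when they were chosen, so a count of called sensors beside the share of all genes is not an unbiased contrast. All 10 of these 10 genes were found, and all 10 were among the 13719 genes that passed a filter on low counts and were tested.

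The samples were mouse embryonic fibroblasts (MEFs), from which polyadenylated RNA was sequenced in 21 libraries, 3 in each of 7 groups. The study asked how gene expression changes when cells lose RTEL1, a helicase that unwinds DNA secondary structures and acts at telomeres, when guanine quadruplexes (4-stranded folds of guanine-rich DNA) are stabilised by the porphyrin ligand TMPyP4, and when cells lose TRF1, a protein that coats telomeric DNA. Every group carried floxed alleles and received an adenovirus, and RNA was taken 96 h after infection. The control virus, Ad-GFP, codes for green fluorescent protein. Ad-Cre codes for Cre recombinase, which deletes the floxed gene, and by the study's methods the Cre virus used on Rtel1f/f cells carries a fluorescent marker as well.

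5 groups had floxed Rtel1 alleles: Rtel1f/f Ad-GFP, Rtel1f/f Ad-Cre, Rtel1f/f Ad-GFP kept in 10 µM TMPyP4 for the last 48 h, and an Ad-GFP and an Ad-Cre group of cells that also carried RTEL1 CA, a mutant RTEL1 with the substitutions C1252A and C1255A. Both remaining groups, Trf1f/f Ad-GFP and Trf1f/f Ad-Cre, had floxed alleles of Terf1, the gene of TRF1. RTEL1 CA was put in with a vector and transcribed from it, and no group had an empty vector or wild-type RTEL1 in its place. No group was left without adenovirus. No cells without floxed alleles received Ad-Cre, so that Cre or its virus and the deletion of the floxed gene cannot be told apart. Rtel1f/f and Trf1f/f cells are different lines, so that the line and its floxed gene cannot be told apart. The labels call the 3 libraries of a group biological replicates and do not say whether these were separate cultures, infections or embryos, so the p-values measure the spread between libraries as they were made.

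Summed over all genes, a library held between 32069888 and 51938593 counts, with a median of 43013208. Rtel1f/f Ad-GFP libraries held 43732660 to 47300825 counts, and Trf1f/f Ad-Cre libraries 36786352 to 45262564. The lowest total belonged to a TMPyP4 library, in a group whose other libraries had 42008482 and 43013208 counts. Levels of a gene are given as CPM, its counts per 1000000 counts of a library after normalisation between libraries, or as TPM, transcripts per 1000000 transcripts, which also corrects for transcript length and so allows different genes to be compared.

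As background, RIG-I (Ddx58) and the related helicase encoded by Ifih1 bind double-stranded or otherwise unusual RNA in the cytosol, and both pass the signal to the mitochondrial adaptor MAVS, from which kinases activate the transcription factors that switch on type I interferon genes. DNA in the cytosol is reported by cGAS through STING (Tmem173), TLR3 detects double-stranded RNA inside endosomes, and ZBP1 binds left-handed nucleic acids and can start cell death, while TREX1, SAMHD1 and ADAR degrade, deplete or edit material that would otherwise set these sensors off. Fibroblasts are a classic cell type for this pathway, and most of these sensor genes are themselves induced by interferon.

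The targeted genes were read first. Rtel1 stood at 66.2, 59.1 and 60.2 CPM in the Rtel1f/f Ad-GFP libraries and at 29.9, 31.9 and 26.8 CPM after Ad-Cre. In RTEL1 CA cells it was at 338, 328 and 331 CPM with Ad-GFP and at 283, 253 and 257 CPM with Ad-Cre, where counts cover the whole gene model and do not separate transcripts of the vector. Rtel1 was therefore lower in every Ad-Cre library than in every Ad-GFP library of the same cells, by a log2 fold change of -1.07 in Rtel1f/f cells and of -0.33 in RTEL1 CA cells, where it was not called (edgeR adjusted p 0.0241). Terf1 stood at 27.9, 29.6 and 30.3 CPM in Trf1f/f Ad-GFP libraries and at 0.110, 0.0458 and 0.0268 CPM after Ad-Cre, which are 5, 2 and 1 counts. In the 15 Rtel1f/f libraries Terf1 lay between 27.3 and 36.9 CPM. TMPyP4-treated cells had 66.3, 79.0 and 70.9 CPM of Rtel1, and Trf1f/f cells 43.7 to 50.04 CPM.

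3 libraries stood apart from the other Rtel1f/f libraries. On the first principal component of the 15 libraries with floxed Rtel1, which held 52.4% of their variance, the Rtel1f/f Ad-GFP libraries were at -55.7, -76.4 and -72.9, while the other 12 lay between -26.4 and 47.6. RTEL1 CA Ad-GFP cells, which carry the same control virus, were thus nearer to the Ad-Cre libraries than to the Ad-GFP control without the mutant. For the 10 sensors, each comparison of another group with Rtel1f/f Ad-GFP is therefore given a second time with RTEL1 CA Ad-GFP as the control, a step chosen after seeing the data, and counts for the gene lists are given with both controls. Rtel1 itself followed the labels, being higher in each of these 3 libraries than in every Rtel1f/f Ad-Cre library, and a mix-up of labels was not tested beyond this. Libraries that share a replicate number were also correlated, after subtracting each group's mean. Between Rtel1f/f Ad-GFP and Rtel1f/f Ad-Cre, r was -0.02, 0.06 and 0.13. Between RTEL1 CA Ad-GFP and Rtel1f/f Ad-Cre, r was 0.78, 0.81 and 0.20. Whether the Rtel1f/f Ad-GFP libraries were prepared differently was not tested. The second control differs from the cells it is set against in carrying the vector and transcribing RTEL1 CA from it. Its mean level of Rtel1 was 332 CPM, against 61.8 CPM in Rtel1f/f Ad-GFP cells. Of the 10 sensors, 6 were lower in it than in Rtel1f/f Ad-GFP cells, beside 22.1% of all tested genes. Over all 21 libraries, the Trf1f/f cells were separated from the rest, at 117 to 128 on the first component against -61.5 to -27.5.

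The label of embryonic fibroblasts was compared with marker genes. Of 10 fibroblast markers, 7 were above 1 CPM in each group with floxed Rtel1 and 10 in each Trf1f/f group, and none was at 0 counts in any group. The most abundant by TPM was the collagen gene Col1a2 in Rtel1f/f Ad-GFP cells, with a mean of 2089 TPM, and the intermediate filament gene Vim elsewhere, with means of 1627 to 2830 TPM. Summed fibroblast markers came to 13738, 12855 and 12822 CPM in Rtel1f/f Ad-GFP libraries, 6508, 4161 and 5824 after Ad-Cre, and 9293, 6231 and 7569 after TMPyP4. In RTEL1 CA cells the sum was 7868, 4837 and 5744 CPM with Ad-GFP and 6732, 4023 and 4473 with Ad-Cre. Trf1f/f cells had 20498, 15142 and 14112 CPM with Ad-GFP and 18105, 14919 and 17672 with Ad-Cre. The sum was thus higher in every Rtel1f/f Ad-GFP library than in any other library with floxed Rtel1, a split that runs with the comparisons against this group, and its part in the results was not tested. After Ad-Cre in Rtel1f/f cells, 2 of the 10 fibroblast markers were higher and 5 lower, beside 22% and 21% of all tested genes, and against RTEL1 CA Ad-GFP 2 were higher and 2 lower, beside 3.8% and 3.95%. After TMPyP4, 5 were lower, beside 13.4% of all tested genes, and against RTEL1 CA Ad-GFP 1 was, beside 7.07%. After Ad-Cre, 1 was lower in RTEL1 CA cells (Col3a1, -0.83), beside 0.569% of all tested genes, and 1 in Trf1f/f cells (Pdgfra, -0.43), beside 0.765%.

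Markers of other cell types were summed in the same way. The 9 macrophage markers in the table summed to between 6.83 and 14.7 CPM in a library, with the most abundant being Cd14 in cells with floxed Rtel1 and Cd68 in Trf1f/f cells, while Adgre1 and Tyrobp were at 0 counts in every group, and Lyz2, Itgam and Ptprc in 1 group each. Cd14 had a mean of 10.7 TPM in Rtel1f/f Ad-Cre cells, where the sensor gene Ifih1 had 3.32 TPM, and Cd68 one of 10.9 TPM in Trf1f/f Ad-Cre cells. Summed over a library, 6 endothelial markers reached 0.245 to 4.45 CPM, led by Pecam1, Cdh5 or Kdr, with Emcn or Tie1 at 0 counts in every group. The 6 epithelial markers summed to 0.918 to 3.45 CPM, led by Krt18 or Epcam, with Krt5 or Krt14 at 0 counts in 5 groups. The endothelial sum was highest in Trf1f/f Ad-Cre libraries, at 4.45, 4.28 and 3.86 CPM against 2.16, 2.64 and 2.51 CPM with Ad-GFP, where 1 of the 3 tested endothelial markers rose, beside 2.65% of all tested genes. In Rtel1f/f cells the macrophage sum was 6.83, 7.03 and 7.17 CPM with Ad-GFP and 14.7, 10.5 and 13.6 CPM with Ad-Cre, and the endothelial sum 0.245, 0.349 and 0.260 against 0.536, 0.571 and 0.573 CPM. After Ad-Cre 2 of the 3 tested macrophage markers rose against Rtel1f/f Ad-GFP, beside 22% of all tested genes. Of the endothelial markers, Kdr was called higher from 8 to 10 counts against 1 to 4, and Cdh5 would not pass the filter without these Ad-Cre libraries, where it is high, so its test is not counted. Set against RTEL1 CA Ad-GFP, at 9.95, 8.49 and 9.73 CPM for macrophage markers and 0.560, 0.733 and 0.388 CPM for endothelial ones, edgeR and DESeq2 each called 0 in either list, with 2 macrophage and 0 endothelial markers at an unadjusted p under 0.05. Of the 3 tested epithelial markers, 1 rose and 1 fell after Ad-Cre against Rtel1f/f Ad-GFP, beside 22% and 21% of all tested genes, and 1 was higher against RTEL1 CA Ad-GFP, beside 3.8%. After TMPyP4 the epithelial sum was 1.52, 1.23 and 1.84 CPM, below the 2.34, 2.90 and 2.64 CPM of Rtel1f/f Ad-GFP and the 2.33, 1.95 and 2.10 CPM of RTEL1 CA Ad-GFP, and 1 of the 3 tested markers was lower with each control, Cdh1 (-1.62) with the first and Epcam (-1.52) with the second, beside 13.4% and 7.07% of all tested genes. Of the macrophage and endothelial markers edgeR and DESeq2 each called 0 after TMPyP4 with either control, with 2 macrophage and 0 endothelial markers at an unadjusted p under 0.05 against the first and 0 and 1 against the second.

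The control lines also differed in these markers. Between RTEL1 CA Ad-GFP and Rtel1f/f Ad-GFP cells, where 22.6% of all tested genes were higher and 22.1% lower, 2 of the 10 fibroblast markers were higher and 5 lower. Of the 3 tested macrophage markers 1 was higher, and of the 3 epithelial ones 1 was higher and 1 lower. In Trf1f/f Ad-GFP against Rtel1f/f Ad-GFP cells the shares were 30.3% and 24.5%, with 1 macrophage marker higher and 1 lower, and 2 epithelial markers lower. Against RTEL1 CA Ad-GFP, Trf1f/f Ad-GFP cells had 1 macrophage marker higher and 2 lower and 1 epithelial marker lower, beside 31.9% and 26.6%. The fibroblast markers Lum and Fap and the endothelial marker Tek reach the filter's level only in Trf1f/f libraries, and Thy1 and Kdr in few others. Without Lum and Fap, 5 of 8 fibroblast markers were higher and 1 lower against the first control, and 7 of 8 higher against the second, Thy1 included, and no count is given for the endothelial list between lines. The part of all these markers in the results was not tested.

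Between genes, levels are compared in TPM. In Rtel1f/f Ad-GFP cells the most abundant of the 10 transcripts was Samhd1, a nucleotide hydrolase, at 89.4 TPM on average, followed by Tmem173 at 33.6, Ddx58 at 23.5, Adar at 21.7, Mavs at 20.9 and Trex1 at 17.8 TPM. The least abundant were Ifih1 at 4.15, Dhx58 at 2.16, Zbp1 at 1.86 and Tlr3 at 1.10 TPM. In Trf1f/f Ad-Cre cells the order was another one. Zbp1 was the most abundant, at 192 TPM on average, ahead of Ddx58 at 171, Samhd1 at 168, Ifih1 at 109.6, Dhx58 at 92.6, Trex1 at 90.5 and Adar at 89.8 TPM. Tmem173 followed at 46.0 and Tlr3 at 38.5 TPM, and Mavs was the least abundant, at 23.8 TPM. Across the 7 groups, the group means of Mavs lay between 20.1 and 24.2 TPM, and those of Zbp1 between 0.237 and 192 TPM.

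For 8 of the 10 genes (Ddx58, Ifih1, Dhx58, Tlr3, Zbp1, Trex1, Samhd1 and Adar) the highest group in CPM was Trf1f/f Ad-Cre and the next was Trf1f/f Ad-GFP, with no overlap between these groups or with the group that followed. In Tmem173 these 2 groups were also on top but overlapped with each other. Below them, Rtel1f/f Ad-GFP was the next group for Ddx58, Dhx58, Zbp1, Tmem173 and Adar, without overlap with the group under it, and also for Ifih1 and Trex1, with overlap. For Adar the remaining 4 groups overlapped in a chain, from 46.7 ± 0.764 CPM (SD, n = 3) with TMPyP4 to 42.3 ± 2.97 CPM (SD, n = 3) in Rtel1f/f Ad-Cre cells. For Ddx58 the chain was broken, with RTEL1 CA Ad-Cre at 29.3 ± 1.96 CPM (SD, n = 3) under Rtel1f/f Ad-Cre and RTEL1 CA Ad-GFP at 24.2 ± 0.939 CPM (SD, n = 3) at the bottom, neither overlapping its neighbour. Tlr3 was lowest with TMPyP4, below all other groups. Samhd1 was lowest in Rtel1f/f Ad-GFP cells, at 167 ± 6.39 CPM (SD, n = 3), and the 5 groups with floxed Rtel1 overlapped in a chain. For Mavs every group overlapped with its neighbour, from 35.9 ± 1.89 CPM (SD, n = 3) in Rtel1f/f Ad-Cre cells down to 28.8 ± 0.882 CPM (SD, n = 3) in Rtel1f/f Ad-GFP cells.

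**Figure D1:**
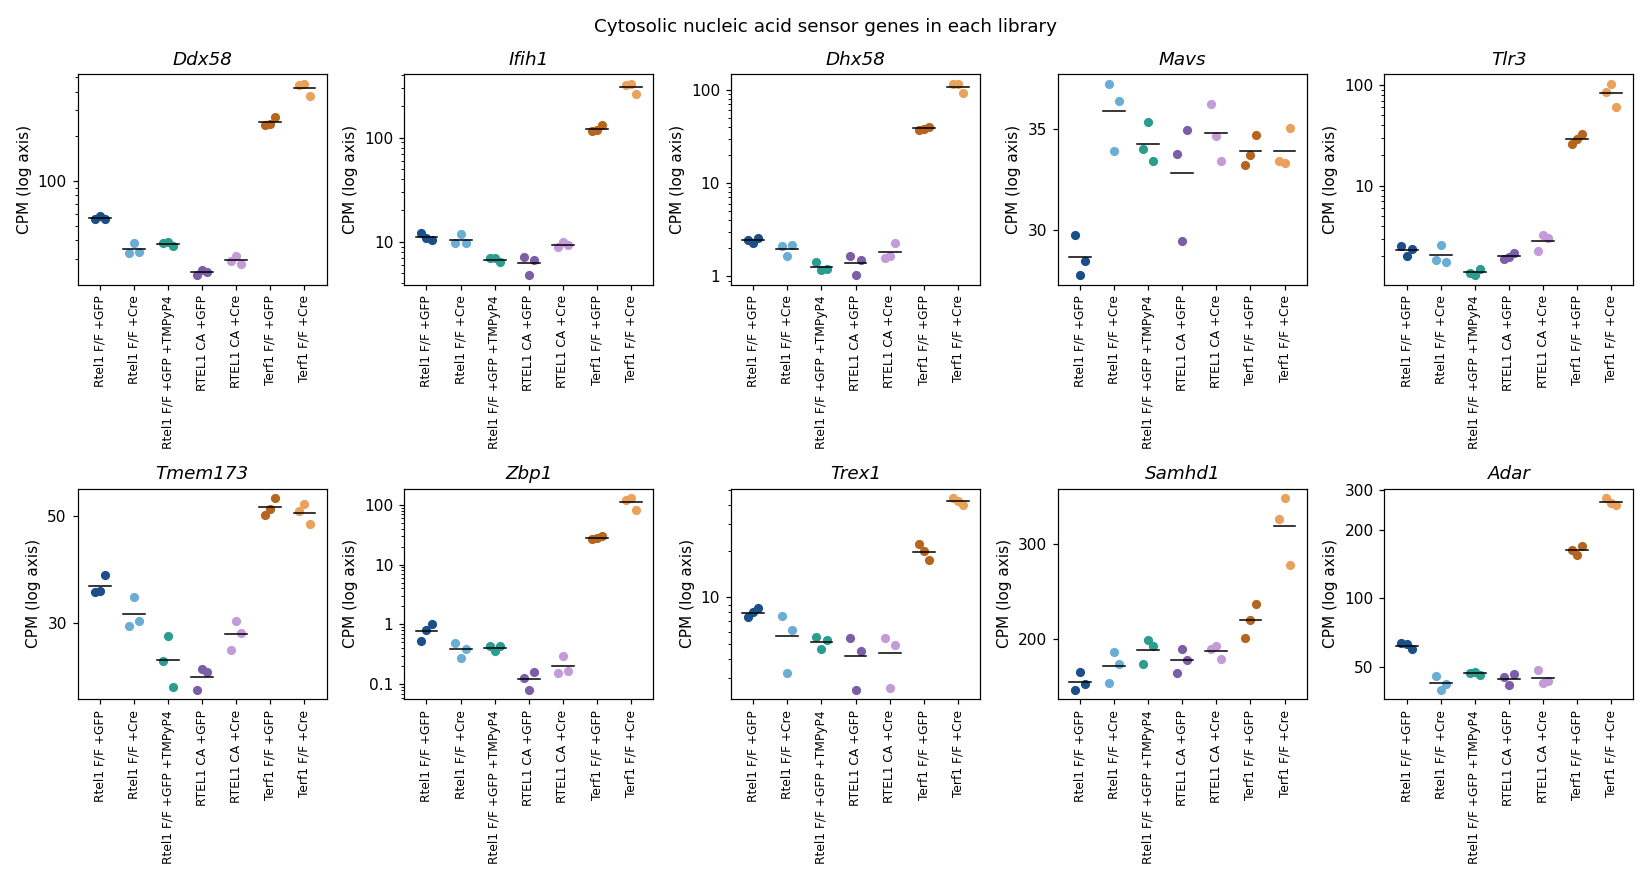
Level of each of the 10 genes in CPM (log axis) in every library, one point per library, 3 per group, with a black line at the group mean. Zbp1 stands at 0.0814 to 1.00 CPM in all libraries with floxed Rtel1 and at 82.8 to 129 CPM in Trf1f/f Ad-Cre libraries, whereas Mavs lies between 28.0 and 37.5 CPM in all 21 libraries.

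Ad-Cre in Trf1f/f cells came with higher levels of most sensors. After Ad-Cre, 7 of the 10 genes rose and the other 3 did not pass the test, against 2.65% of all tested genes that rose. The median log2 fold change of the 10 genes was 0.92, beside 0.00 over all genes tested. The largest fold, 3.95, was that of Zbp1, and the RNA sensors Tlr3, Dhx58 and Ifih1 rose 2.85-fold, 2.80-fold and 2.498-fold. Genes are called changed here at an adjusted p of at most 0.01, where the adjusted p is the p-value of edgeR's quasi-likelihood test after Benjamini-Hochberg adjustment over all 13719 genes. Because the libraries come from whole cultures, a change in the number of cells that express a gene and a change in RNA per cell cannot be told apart.

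Among the RNA sensors, Ddx58, which encodes RIG-I, stood at 238, 243 and 269 CPM with Ad-GFP and at 447, 453 and 372 CPM with Ad-Cre. Ifih1 had 115, 117 and 133 CPM with Ad-GFP and 321, 328 and 262 CPM with Ad-Cre. Dhx58, whose product LGP2 tunes both of these helicases, had 37.5, 38.0 and 40.2 CPM against 116, 115 and 92.4 CPM. In all 3 genes every Ad-Cre library was above every Ad-GFP library, and replicate 3 of Ad-Cre was the lowest of its group. The log2 fold changes were 0.76 for Ddx58 (SE 0.0799), 1.32 for Ifih1 (SE 0.118) and 1.48 for Dhx58 (SE 0.131), with edgeR adjusted p of 4.87e-06, 1.23e-06 and 1.11e-06.

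Tlr3, the endosomal receptor, stood at 25.9, 29.2 and 32.5 CPM with Ad-GFP and at 85.8, 103 and 60.8 CPM with Ad-Cre. Zbp1, which can trigger necroptosis through RIPK3, had 27.0, 27.6 and 30.1 CPM with Ad-GFP and 123, 129 and 82.8 CPM with Ad-Cre. Replicate 3 was again the lowest Ad-Cre library for both genes and still lay well above the control libraries. Tlr3 rose by a log2 fold change of 1.51 (SE 0.166) and Zbp1 by 1.98 (SE 0.167), with edgeR adjusted p of 8.39e-06 and 7.19e-07.

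The RNA-editing enzyme gene Adar had 163, 154 and 169 CPM with Ad-GFP and 275.0, 263 and 257 CPM with Ad-Cre. Samhd1 stood at 201, 218 and 233 CPM with Ad-GFP and at 334, 365 and 274 CPM with Ad-Cre. Neither gene's groups overlapped. Their log2 fold changes were 0.71 (SE 0.0649) and 0.58 (SE 0.0869), with edgeR adjusted p of 1.51e-06 and 2.46e-04. Trex1, a DNA exonuclease, had 22.3, 19.9 and 17.4 CPM against 44.1, 42.3 and 39.9 CPM, without overlap. Its log2 fold change of 1.08 (95% confidence interval 0.51 to 1.66) nevertheless missed the threshold, at an edgeR adjusted p of 0.0222, while DESeq2 called it at 1.08 with an adjusted p of 0.00115. Over all alternatives the adjusted p of Trex1 lay between 6.12e-04 and 0.117.

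Both adaptors missed the threshold. Mavs stood at 33.1, 33.7 and 34.7 CPM with Ad-GFP and 33.3, 33.2 and 35.0 CPM with Ad-Cre, a log2 fold change of 0.00 (95% confidence interval -0.14 to 0.14). Tmem173, the gene of STING, had 50.2, 51.7 and 54.3 CPM against 51.2, 52.9 and 48.0 CPM, a log2 fold change of -0.04 (95% confidence interval -0.21 to 0.14). The groups overlapped in both genes. Here and elsewhere, a p-value that misses the threshold does not show that the groups act alike. In a fit of the compared groups alone, Samhd1 lost its call, at a log2 fold change of 0.58 and an adjusted p of 0.0151, the highest over its alternatives, whose lowest was 6.10e-07.

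Ad-Cre in Rtel1f/f cells came with a different picture, which turned with the control. Against Rtel1f/f Ad-GFP cells, 3 of the 10 genes fell (Ddx58, Adar and Zbp1), where 21% of all tested genes fell, and 1 gene, Mavs, rose, where 22% of all tested genes rose. These shares of members are near the shares over all genes. The median log2 fold change of the 10 genes was -0.25, beside -0.03 over all genes tested. Against RTEL1 CA Ad-GFP cells, 3 of the 10 genes rose (Ddx58, Ifih1 and Tmem173), where 3.8% of all tested genes did.

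Ddx58 stood at 55.6, 58.0 and 55.1 CPM in Rtel1f/f Ad-GFP libraries, at 32.7, 38.1 and 33.2 CPM after Ad-Cre, and at 23.3, 25.1 and 24.3 CPM in RTEL1 CA Ad-GFP libraries. The Ad-Cre libraries thus lay below all libraries of one control and above all libraries of the other. Its log2 fold change was -0.70 (SE 0.0809) against Rtel1f/f Ad-GFP and 0.52 against RTEL1 CA Ad-GFP, with edgeR adjusted p of 1.19e-06 and 2.21e-04. Ifih1 had 12.1, 10.8 and 10.5 CPM in Rtel1f/f Ad-GFP, 9.77, 11.9 and 9.66 CPM after Ad-Cre, and 7.21, 4.80 and 6.76 CPM in RTEL1 CA Ad-GFP libraries. The Ad-Cre libraries overlapped with the first control and were above the second. Its log2 fold change was -0.09 (95% confidence interval -0.35 to 0.17) against the first and 0.73 against the second, where the edgeR adjusted p was 5.97e-04. Dhx58, with 2.45, 2.28 and 2.58 CPM in Rtel1f/f Ad-GFP and 2.12, 1.66 and 2.16 CPM after Ad-Cre, gave -0.30 (95% confidence interval -0.63 to 0.03) and, against RTEL1 CA Ad-GFP, 0.49, and was called in neither.

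The adaptor gene Mavs stood at 29.8, 28.0 and 28.6 CPM in Rtel1f/f Ad-GFP libraries and at 37.5, 33.8 and 36.5 CPM after Ad-Cre, and these groups did not overlap. It rose by a log2 fold change of 0.32 (SE 0.0655, edgeR adjusted p 4.65e-04), whereas against RTEL1 CA Ad-GFP, at 33.7, 29.5 and 34.9 CPM, the value was 0.13 and not called. Tmem173 had 34.7, 34.8 and 37.7 CPM in Rtel1f/f Ad-GFP, 29.6, 34.0 and 30.2 CPM after Ad-Cre, and 21.8, 24.0 and 23.7 CPM in RTEL1 CA Ad-GFP libraries. As with Ddx58, the Ad-Cre libraries sat between both controls without touching either. Its log2 fold change was -0.19 (95% confidence interval -0.37 to -0.02) against the first and 0.43 against the second, with edgeR adjusted p of 0.0589 and 0.00173. Over all alternatives, the control included, the adjusted p of Tmem173 lay between 0.00134 and 0.301, that of Ifih1 between 5.97e-04 and 0.917 and that of Ddx58 between 2.75e-11 and 5.54e-04.

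Adar had 63.3, 62.7 and 59.7 CPM in Rtel1f/f Ad-GFP, 45.5, 39.6 and 41.7 CPM after Ad-Cre, and 45.2, 41.5 and 46.2 CPM in RTEL1 CA Ad-GFP libraries. It fell by 0.55 on the log2 scale (SE 0.0655, edgeR adjusted p 1.58e-06) against the first control and was not called against the second, where the groups overlapped and the value was -0.07. Of the other enzyme genes, Samhd1 was at 161 to 174 CPM before and 166 to 189 CPM after Ad-Cre, with a log2 fold change of 0.10 (95% confidence interval -0.08 to 0.28). Trex1 stood at 7.46, 7.996 and 8.49 CPM in Rtel1f/f Ad-GFP and at 7.62, 3.25 and 6.11 CPM after Ad-Cre, where replicate 2 was far below the others. Its log2 fold change was -0.49 (95% confidence interval -1.10 to 0.11). Tlr3 lay between 2.01 and 2.54 CPM before and between 1.75 and 2.58 CPM after Ad-Cre, with -0.16 (95% confidence interval -0.58 to 0.25).

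Zbp1 had few counts in all cells with floxed Rtel1. It stood at 0.534, 0.822 and 1.00 CPM (24, 40 and 50 counts) in Rtel1f/f Ad-GFP libraries, at 0.489, 0.273 and 0.382 CPM (21, 11 and 14 counts) after Ad-Cre, and at 0.129, 0.0814 and 0.160 CPM (6, 3 and 7 counts) in RTEL1 CA Ad-GFP libraries. The Ad-Cre libraries were below every library of the first control and above every library of the second. It fell by 1.04 on the log2 scale against the first (SE 0.285, edgeR adjusted p 0.00482), while the value was 1.59 against the second (adjusted p 0.0135, not called). The call was lost without Ad-GFP replicate 2 (-0.996, adjusted p 0.0154), Ad-GFP replicate 3 (-0.82, 0.0333), Ad-Cre replicate 2 (-0.86, 0.0324) or Ad-Cre replicate 3 (-1.03, 0.0150), and over all alternatives the adjusted p lay between 0.00108 and 0.0333. A fit of the compared groups alone ended the calls of Zbp1 (adjusted p 0.0298) and of Mavs (adjusted p 0.0132, with a range of 6.60e-07 to 0.214 over its alternatives).

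TMPyP4, a porphyrin that binds and stabilises guanine quadruplexes, was compared with the same Rtel1f/f Ad-GFP libraries, so both comparisons share their control. Against these, 6 of the 10 genes fell (Ddx58, Ifih1, Dhx58, Tlr3, Tmem173 and Adar), where 13.4% of all tested genes fell, and Mavs, 1 of the 10, rose, where 16.6% of all tested genes rose. The median log2 fold change was -0.60 for the 10 genes and -0.01 for all genes tested. Against RTEL1 CA Ad-GFP cells, 2 of the 10 genes rose (Ddx58 and Zbp1), where 9.94% of all tested genes did, and the other 8 were not called.

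With TMPyP4, Ddx58 stood at 38.0, 38.9 and 36.4 CPM, Rtel1f/f Ad-GFP libraries being at 55.1 to 58.0 and RTEL1 CA Ad-GFP libraries at 23.3 to 25.1 CPM. Ifih1 had 6.94, 6.94 and 6.35 CPM, below the 10.5 to 12.1 CPM of the first control and overlapping the 4.80 to 7.21 CPM of the second. Dhx58 was at 1.43, 1.16 and 1.19 CPM, again below the 2.28 to 2.58 CPM of the first control and within the 1.03 to 1.64 CPM of the second. All 3 RNA sensors fell against Rtel1f/f Ad-GFP, with log2 fold changes of -0.57 for Ddx58, -0.72 for Ifih1 and -0.96 for Dhx58 and edgeR adjusted p of 2.32e-05, 2.03e-04 and 1.86e-04. Against RTEL1 CA Ad-GFP the values were 0.64 (called higher, edgeR adjusted p 1.31e-05, in a range of 2.95e-08 to 5.48e-04 over its alternatives), 0.10 and -0.17.

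Tmem173 stood at 25.0, 28.2 and 22.1 CPM with TMPyP4, under every Rtel1f/f Ad-GFP library and overlapping with RTEL1 CA Ad-GFP. Adar had 46.9, 47.3 and 45.8 CPM, under the first control, where the lowest library was at 59.7 CPM. Tmem173 fell by 0.51 and Adar by 0.41 on the log2 scale (edgeR adjusted p 1.12e-04 and 8.21e-05), while against RTEL1 CA Ad-GFP the values were 0.11 and 0.07, neither called. Samhd1 was at 180, 199.7 and 194 CPM, above every Rtel1f/f Ad-GFP library but not called, with a log2 fold change of 0.20 (95% confidence interval 0.01 to 0.38). Trex1 had 5.55, 4.63 and 5.28 CPM, below the first control, and its -0.63 (95% confidence interval -1.24 to -0.03) was not called. In a fit of the compared groups alone, Trex1 was called at -0.64 with an adjusted p of 0.00218, the lowest of a range that reached 0.505 over its alternatives.

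The other values after TMPyP4 crossed the threshold with single libraries or other processing. Tlr3 stood at 1.36, 1.301 and 1.504 CPM, under the 2.01 to 2.54 CPM of Rtel1f/f Ad-GFP. It fell by 0.72 on the log2 scale (edgeR adjusted p 0.00955), but leaving out any of the 6 compared libraries ended the call, with values of -0.82 to -0.65 and adjusted p of 0.0138 to 0.0419, and so did DESeq2's size factors in edgeR (-0.73, adjusted p 0.0114), no low-count filter (-0.71, 0.0142) and the other control (-0.53, 0.0752). Mavs, at 34.0, 35.3 and 33.3 CPM, rose by 0.25 (edgeR adjusted p 0.00537), a call lost without Ad-GFP replicate 2 or 3 or without any 1 of TMPyP4 replicates 1, 2 and 3, at 0.21 to 0.27 and adjusted p of 0.0111 to 0.0328, in a fit of the compared groups alone (0.24, 0.0181) and with the other control (0.06, 0.518). Zbp1 had 0.444, 0.361 and 0.430 CPM (14, 15 and 18 counts), all below Rtel1f/f Ad-GFP. Its -0.94 (95% confidence interval -1.54 to -0.35) missed the threshold at an edgeR adjusted p of 0.0123, passed it without Ad-GFP replicate 1 (-1.15, adjusted p 0.00286) and with DESeq2 (-0.96, 0.00748), and was 1.68 and called against RTEL1 CA Ad-GFP (edgeR adjusted p 0.00478). Over its alternatives the adjusted p of Zbp1 lay between 0.00286 and 0.0651, that of Tlr3 between 0.00577 and 0.0941, and that of Mavs between 7.66e-04 and 0.518.

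**Figure D2:**
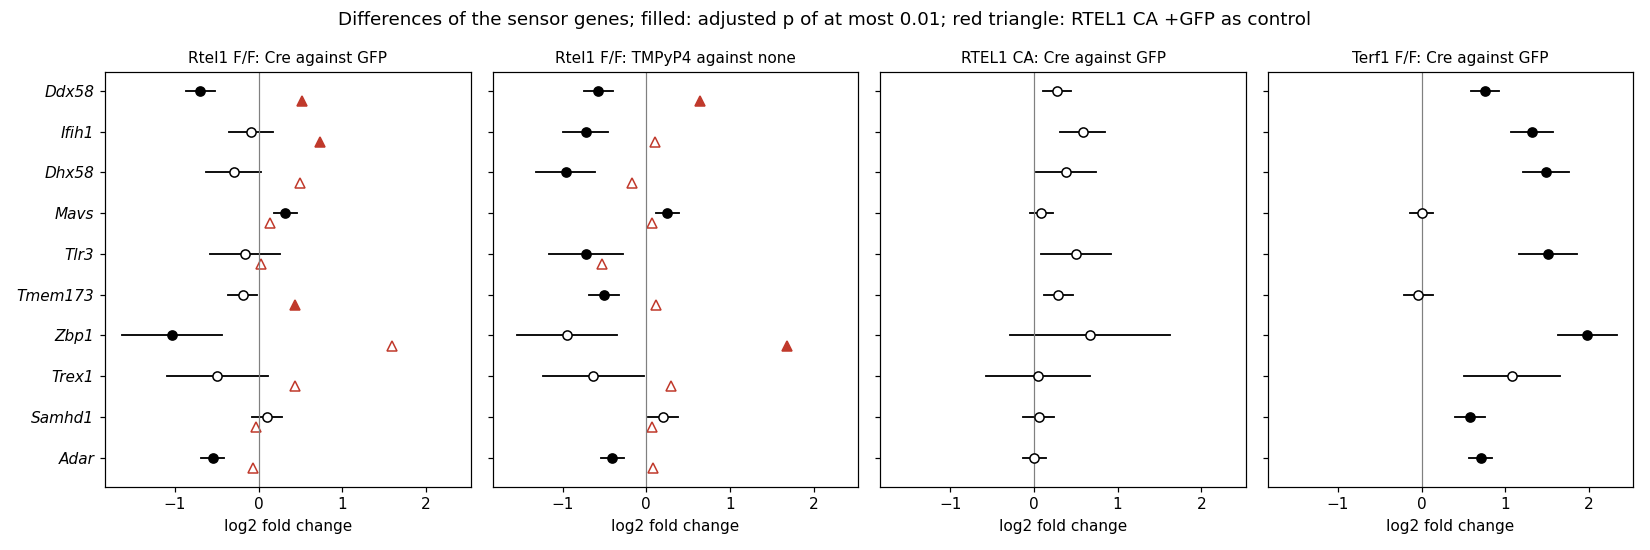
Log2 fold change of the 10 genes with 95% confidence intervals in 4 comparisons of Ad-Cre or TMPyP4 with Ad-GFP, with filled points for called genes (adjusted p up to 0.01) and, in the first 2 panels, red triangles for the value against RTEL1 CA Ad-GFP. Ddx58 lies at -0.70 and -0.57 against Rtel1f/f Ad-GFP but at 0.52 and 0.64 against RTEL1 CA Ad-GFP, and at 0.76 in Trf1f/f cells.

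Set directly against TMPyP4, which needs neither control, Rtel1f/f Ad-Cre cells had more of 2 of the 10 genes, Dhx58 and Ifih1, where 6.13% of all tested genes were higher. Dhx58 stood at 2.12, 1.66 and 2.16 CPM against 1.43, 1.16 and 1.19 CPM, a log2 fold change of 0.66 (edgeR adjusted p 0.00898). Ifih1 stood at 9.77, 11.9 and 9.66 CPM against 6.94, 6.94 and 6.35 CPM, or 0.63 (edgeR adjusted p 0.00132). For both RNA sensors the groups did not overlap. Tmem173, at 29.6 to 34.0 against 22.1 to 28.2 CPM, gave 0.32 (95% confidence interval 0.14 to 0.49, edgeR adjusted p 0.0102), and narrowly missed the threshold. Tlr3 gave 0.56 (95% confidence interval 0.11 to 1.01), and the median over the 10 genes was 0.11, beside -0.00 over all genes tested. Of 10 fibroblast markers 2 were higher and 2 lower with Ad-Cre, beside 6.13% and 9.09% of all tested genes. Of 3 tested markers each, 1 macrophage marker was higher, and 1 epithelial marker was higher and 1 lower. For the endothelial list, edgeR and DESeq2 each called 0. The part of these markers was not tested.

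Same-numbered libraries of Ad-Cre and TMPyP4 resembled each other, and a fit blocked by replicate number called Tmem173, at 0.32 with an adjusted p of 0.00688. It was also called by DESeq2 (0.34, adjusted p 0.00531), under a filter of at least 10 counts in every library (0.32, 0.00818) and without TMPyP4 replicate 2 (0.41, 0.00283), in a range of 0.00283 to 0.0871 over its alternatives. Dhx58 lost its call without Ad-Cre replicate 1 or 3 or without any 1 of TMPyP4 replicates 1, 2 and 3, at 0.60 to 0.78 and adjusted p of 0.0115 to 0.0427. A fit of these groups alone called neither Dhx58 (0.67, adjusted p 0.0349) nor Ifih1 (0.65, adjusted p 0.0117), where the lowest adjusted p over the alternatives were 0.00312 and 3.76e-05.

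In cells that carried RTEL1 CA, which keeps a mutant RTEL1 present after Cre, none of the 10 genes was called by edgeR after Ad-Cre. 5 of them (Ddx58, Ifih1, Dhx58, Tlr3 and Tmem173) had an unadjusted p under 0.05, and DESeq2 called 1, Ifih1. Over all genes tested, 1.09% were called in either direction. The median log2 fold change of the 10 genes was 0.28, beside 0.00 over all genes.

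Ifih1 stood at 7.21, 4.80 and 6.76 CPM with Ad-GFP and at 8.997, 9.99 and 9.25 CPM with Ad-Cre, without overlap. Its log2 fold change was 0.58 (95% confidence interval 0.31 to 0.85) at an edgeR adjusted p of 0.0162, and 0.57 at 0.00247 by DESeq2, in a range of 0.00247 to 0.273 over its alternatives. Ddx58 had 23.3, 25.1 and 24.3 CPM against 28.9, 31.4 and 27.6 CPM, or 0.27 (95% confidence interval 0.10 to 0.45). Tmem173 had 21.8, 24.0 and 23.7 CPM against 26.4, 30.2 and 28.6 CPM, or 0.29 (95% confidence interval 0.11 to 0.47). In these 3 genes, and in Tlr3 at 0.50 (95% confidence interval 0.09 to 0.92), every Ad-Cre library was above every Ad-GFP library. Dhx58 gave 0.38 (95% confidence interval 0.03 to 0.74) and Zbp1 0.67 (95% confidence interval -0.29 to 1.63) from 3 to 12 counts a library, both with overlapping groups. Adar, Mavs, Samhd1 and Trex1 lay between 0.00 and 0.09, and for Trex1, low in replicate 2 of both groups at 2.52 and 2.60 CPM, the confidence interval ran from -0.57 to 0.68.

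Both control lines also differed before any deletion. In RTEL1 CA Ad-GFP cells 6 of the 10 genes were lower than in Rtel1f/f Ad-GFP cells, where 22.1% of all tested genes were lower. The median log2 fold change was -0.71 for the 10 genes and -0.03 for all genes. These 6 were Zbp1 at -2.63, Ddx58 at -1.21, Ifih1 at -0.83, Dhx58 at -0.80, Tmem173 at -0.62 and Adar at -0.48, with edgeR adjusted p between 1.85e-09 and 4.46e-04, and no group overlapped with the other in any of them. Trex1 gave -0.93 (95% confidence interval -1.54 to -0.32, edgeR adjusted p 0.0112) from 7.46, 7.996 and 8.49 CPM against 5.45, 2.52 and 4.52 CPM. Mavs gave 0.18 (95% confidence interval 0.05 to 0.32), Tlr3 -0.19 (-0.61 to 0.22) and Samhd1 0.13 (-0.05 to 0.32). Trex1 was called by edgeR without RTEL1 CA Ad-GFP replicate 1 (-1.14, adjusted p 0.00470). With all libraries it was called by DESeq2 (adjusted p 0.00205), with DESeq2's size factors in edgeR (0.00959) and on genes with at least 10 counts in every library (0.00972). Mavs was called by edgeR without RTEL1 CA Ad-GFP replicate 2 (0.26, adjusted p 0.00240). With all libraries it was called by DESeq2 (adjusted p 0.00245) and with DESeq2's size factors in edgeR (0.00900). Over the alternatives the adjusted p lay between 0.00181 and 0.0551 for Trex1 and between 0.00240 and 0.119 for Mavs.

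Trf1f/f Ad-GFP cells had more of all 10 of the 10 genes than Rtel1f/f Ad-GFP cells, in a comparison where 30.3% of all tested genes were higher. The median log2 fold change was 1.77, beside 0.02 over all genes. Zbp1 was 35.6-fold higher, Dhx58 15.8-fold, Tlr3 12.7-fold and Ifih1 10.9-fold, while Ddx58 was 4.44-fold, Adar 2.62-fold and Trex1 2.49-fold higher. Smaller log2 fold changes were those of Tmem173 (0.54), Samhd1 (0.38) and Mavs (0.23), with edgeR adjusted p of 1.68e-05, 8.98e-04 and 0.00472. Against RTEL1 CA Ad-GFP cells, 8 of the 10 genes were higher, where 31.9% of all tested genes were, and Mavs (0.05, edgeR adjusted p 0.537) and Samhd1 (0.25, edgeR adjusted p 0.0179) were not called. The call of Mavs was also lost without Rtel1f/f Ad-GFP replicate 2 (0.20, adjusted p 0.0252) or 3 (0.21, 0.0203), without Trf1f/f Ad-GFP replicate 3 (0.21, 0.0214) and in a fit of these groups alone (0.22, 0.0163), and that of Samhd1 without Rtel1f/f Ad-GFP replicate 3 (0.35, 0.0111). Over the alternatives the adjusted p of Mavs lay between 3.23e-04 and 0.537, and that of Samhd1 between 1.89e-04 and 0.0186.

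Whether the effect of Cre differed between cell lines was tested as a difference of log2 fold changes. Between Rtel1f/f and Trf1f/f cells, the effect of Ad-Cre was lower in Rtel1f/f cells for 8 of the 10 genes, where 14.5% of all tested genes were lower, and higher for 1 of the 10, Mavs, where 15.8% were higher. The median difference was -1.44 for the 10 genes, beside -0.05 for all genes. The RNA sensors differed by -1.46 (Ddx58), -1.41 (Ifih1) and -1.78 (Dhx58), the receptors by -1.67 (Tlr3) and -3.02 (Zbp1), and the enzymes by -1.26 (Adar), -0.48 (Samhd1) and -1.58 (Trex1). Tmem173 gave -0.16 (95% confidence interval -0.40 to 0.09). With RTEL1 CA Ad-GFP as control of the Rtel1f/f cells, 4 of the 10 genes were called lower, where 2.73% of all tested genes were: Adar at -0.78, Dhx58 at -0.99, Samhd1 at -0.62 and Tlr3 at -1.48, with edgeR adjusted p of 1.99e-05, 0.00576, 0.00311 and 0.00116. For Adar, Dhx58 and Tlr3 these were the highest over all alternatives, whose lowest were 4.27e-44, 1.87e-15 and 1.36e-07. Of the others, Zbp1 gave -0.40, Ifih1 -0.59, Ddx58 -0.24, Trex1 -0.65, Mavs 0.13 and Tmem173 0.47 against that control. In this difference with Rtel1f/f Ad-GFP, 2 of 10 fibroblast markers were higher and 3 lower, beside 15.8% and 14.5% of all tested genes. The 10 include Lum and Fap, which reach the filter's level only in Trf1f/f libraries. Of 3 tested markers each, 2 macrophage ones were higher and 1 epithelial one lower. With RTEL1 CA Ad-GFP, 2 fibroblast markers were higher, beside 1.64% of all tested genes, and 1 epithelial one lower, beside 2.73%. Both edgeR and DESeq2 called 0 macrophage markers. The part of these markers was not tested.

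Calls of 3 sensors in the difference between Rtel1f/f and Trf1f/f cells were lost without single libraries, and those of Mavs and Samhd1 also under other processing. The call of Mavs (0.32, edgeR adjusted p 0.00998) was lost without Rtel1f/f Ad-GFP replicate 2 or 3, Rtel1f/f Ad-Cre replicate 1 or 3, Trf1f/f Ad-GFP replicate 1, 2 or 3, or Trf1f/f Ad-Cre replicate 1 or 2, at adjusted p of 0.0118 to 0.0270, and without a low-count filter (0.34, 0.0102), on genes with at least 10 counts in every library (0.30, 0.0115) and in a fit of these groups alone (0.32, 0.0143). The call of Samhd1 (edgeR adjusted p 0.00403) was lost without Rtel1f/f Ad-GFP replicate 2 or 3, Rtel1f/f Ad-Cre replicate 1 or 3, Trf1f/f Ad-GFP replicate 1 or 2, or Trf1f/f Ad-Cre replicate 1 or 2, at adjusted p of 0.0123 to 0.0287, and with DESeq2's size factors in edgeR (-0.46, 0.0101), without a filter (-0.46, 0.0109) and in a fit of these groups alone (-0.48, 0.0140). Trex1 (edgeR adjusted p 0.00386) was lost without Trf1f/f Ad-GFP replicate 3, at -1.49 and an adjusted p of 0.0121. Over all alternatives, the adjusted p reached from 6.69e-04 to 0.519 for Mavs, 9.86e-04 to 0.0287 for Samhd1 and 1.03e-04 to 0.443 for Trex1.

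Between Rtel1f/f cells and RTEL1 CA cells, the effect of Ad-Cre was lower without the mutant for 4 of the 10 genes, where 12.3% of all tested genes were lower. These were Ddx58 at -0.97, Ifih1 at -0.67, Adar at -0.55 and Tmem173 at -0.49, with edgeR adjusted p of 5.91e-06, 0.00648, 1.63e-04 and 0.00375, and the median over the 10 genes was -0.61, beside -0.05 over all genes. Taken without either Ad-GFP group, as Rtel1f/f Ad-Cre against RTEL1 CA Ad-Cre libraries, edgeR called 0 of the 10 genes, with 3 at an unadjusted p under 0.05, DESeq2 also called 0, and 4.3% of all tested genes were called in either direction. In that direct comparison Ddx58 gave 0.24, Ifih1 0.15, Adar -0.07, Tmem173 0.14, Tlr3 -0.47, Zbp1 0.92, Trex1 0.38, Dhx58 0.11, Mavs 0.05 and Samhd1 -0.09. Trex1 stood at 7.62, 3.25 and 6.11 CPM in Rtel1f/f Ad-Cre and at 5.49, 2.60 and 4.90 CPM in RTEL1 CA Ad-Cre libraries, where the groups overlapped but each library of the first was above the library of the second with its number. With Rtel1f/f Ad-GFP as control, Zbp1 gave -1.71 (95% confidence interval -2.84 to -0.57) and was called without Rtel1f/f Ad-GFP replicate 1 (-1.91, adjusted p 0.00595). Ifih1 lost its call without Rtel1f/f Ad-GFP replicate 1, 2 or 3, Rtel1f/f Ad-Cre replicate 1 or 3, RTEL1 CA Ad-GFP replicate 2 or RTEL1 CA Ad-Cre replicate 2 or 3 (adjusted p 0.0106 to 0.0223), and in a fit of these groups alone (-0.68, 0.0279). Tmem173 lost it without Rtel1f/f Ad-GFP replicate 2 or 3, Rtel1f/f Ad-Cre replicate 1 or 3, RTEL1 CA Ad-GFP replicate 1 or 3 or RTEL1 CA Ad-Cre replicate 2 or 3 (adjusted p 0.0110 to 0.0317), with DESeq2's size factors in edgeR (-0.46, 0.0118) and without a filter (-0.46, 0.0106). Over all alternatives, the adjusted p reached from 0.00595 to 0.235 for Zbp1, 0.00202 to 0.666 for Ifih1 and 0.00257 to 0.478 for Tmem173. With Rtel1f/f Ad-GFP as control, 1 of 10 fibroblast markers was higher in this difference and 4 lower, beside 12.8% and 12.3% of all tested genes. The 10 include Lum and Fap, which reach the filter's level in no library of the groups compared here. Of 3 tested markers each, 2 macrophage ones were higher and 1 epithelial one lower. Between both Ad-Cre groups directly, 2 fibroblast markers were higher, beside 1.76% of all tested genes, and 1 epithelial one lower, beside 2.54%. Here edgeR and DESeq2 each called 0 macrophage markers. The part of these markers was not tested.

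Between Trf1f/f and RTEL1 CA cells, 1 of the 10 genes, Adar, had a higher effect of Ad-Cre in Trf1f/f cells, where 0.547% of all tested genes did. Adar differed by 0.70 (SE 0.0920, edgeR adjusted p 6.18e-04). The median difference over the 10 genes was 0.72, beside -0.01 over all genes, and 9 of the 10 had an unadjusted p under 0.05. Dhx58 gave 1.10 (95% confidence interval 0.65 to 1.55, edgeR adjusted p 0.0106), Ifih1 0.74 (0.37 to 1.10), Ddx58 0.49 (0.25 to 0.73), Samhd1 0.53 (0.27 to 0.78) and Tlr3 1.01 (0.47 to 1.55), none of them called. DESeq2 called 3 genes, Adar, Dhx58 and Ifih1. Dhx58 was called without RTEL1 CA Ad-GFP replicate 2 (1.26, adjusted p 0.00290), RTEL1 CA Ad-Cre replicate 3 (1.28, 0.00333) or Trf1f/f Ad-Cre replicate 3 (1.19, 0.00375), with DESeq2's size factors in edgeR (1.10, 0.00887) and without a filter (1.10, 0.00834), Ifih1 without RTEL1 CA Ad-GFP replicate 2 (0.89, 0.00642), and Samhd1 without Trf1f/f Ad-Cre replicate 3 (0.63, 0.00878). Over all alternatives, their adjusted p reached from 1.10e-04 to 0.0397, from 0.00614 to 0.137 and from 0.00878 to 0.185.

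The genes around the sensors were read from 6 lists, which hold 55 further genes, 53 of them tested. Ifnb1, the gene of interferon beta, would not pass the filter without the Trf1f/f Ad-Cre libraries, where it is high, and is left out of the counts for Trf1f/f cells. There 18 of the other 52 rose after Ad-Cre and the rest were not called, where 2.65% of all tested genes rose. Of 11 genes for downstream signalling, 1 rose, Irf7, a transcription factor that amplifies interferon production (1.70, edgeR adjusted p 1.22e-05), at 132.5, 128 and 118 CPM before and 459.9, 447 and 327 CPM after Ad-Cre. Of 8 regulators of the sensors, 3 rose: the ubiquitin ligase genes Rnf135 (0.74) and Trim25 (0.63), whose products activate RIG-I, and Zc3hav1 (0.68), which encodes an antiviral RNA-binding protein. Of 10 other sensors 8 were tested, since Aim2 had 0 to 10 and Tlr9 0 to 2 counts a library, and 4 rose, namely Ddx60 (1.38), Ifi204 (1.10), the double-stranded RNA kinase gene Eif2ak2 (0.66) and Mb21d1, the gene of cGAS (0.42).

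Of 8 other genes that clear nucleic acids edgeR called 0 in Trf1f/f cells, with 3 at an unadjusted p under 0.05, and DESeq2 called 0. Of 5 genes for cell death downstream of ZBP1, 1 rose, Mlkl, the executor of necroptosis (0.98). Of 13 genes for interferon and its targets, 12 are left without Ifnb1, and 9 of these rose, with a median of 1.01 beside 0.00 over all genes. They included the chemokine genes Ccl5 and Cxcl10 (both 2.20) and the antiviral gene Rsad2 (2.20). Ifnb1 was rare, with 8, 13 and 8 counts in Trf1f/f Ad-GFP libraries, 56, 89 and 35 counts after Ad-Cre and 0 to 3 counts in every library with floxed Rtel1.

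After Ad-Cre in Rtel1f/f cells, 7 of the 53 genes rose and 17 fell against Rtel1f/f Ad-GFP, where 22% of all tested genes rose and 21% fell. With RTEL1 CA Ad-GFP as the control, edgeR called 7 of the 53 higher and 0 lower, with 19 at an unadjusted p under 0.05, and DESeq2 called 8, where 3.8% of all tested genes were higher and 3.95% lower. Tlr7, which passes the filter through RTEL1 CA libraries, is among the 53 and was not called by edgeR with this control. None of the 7 rises and 17 falls was called in the same direction with that control, and some of the genes that had fallen, Isg15 (-0.54) and Ifit1 (-0.81) among them, were called higher. The values that follow are against Rtel1f/f Ad-GFP unless said otherwise. In downstream signalling, Tank rose (0.67) and Irf7 (-2.51) and the kinase gene Ikbke (-0.48) fell. Irf7 stood at 4.34, 5.88 and 6.29 CPM with Ad-GFP and at 1.17, 0.993 and 0.710 CPM with Ad-Cre, and RTEL1 CA Ad-GFP libraries, at 0.797, 0.488 and 0.457 CPM, overlapped with the latter. Among regulators Pcbp2 rose (0.41) and Trim25 fell (-0.83). Among other sensors 3 rose, Dhx9 (0.39), Ddx41 (0.38) and Mb21d1 (0.30), and 2 fell, Unc93b1 (-1.34), which carries endosomal receptors to their compartment, and Ddx60 (-0.90). Of the clearance genes 3 fell, among them the lysosomal DNase gene Dnase2a (-1.10) and Xrn1 (-0.32), and of the death effectors 2 rose, Mlkl (0.69) and Casp8 (0.35). Of the 13 interferon genes 9 fell, among them Usp18 (-2.89), Ifit3 (-1.49) and Stat2 (-1.10), with a list median of -0.72 beside -0.03 over all genes. Here and in other comparisons of groups with floxed Rtel1, the 13 include Ifnb1. It reached the filter's level in no library of these groups. Against RTEL1 CA Ad-GFP the 7 genes that had risen gave -0.20 (Tank), 0.23 (Pcbp2), -0.02 (Dhx9), 0.19 (Ddx41), 0.20 (Mb21d1), 0.18 (Mlkl) and 0.25 (Casp8), and Irf7 gave 0.71, none of them called. With that control 5 of the 13 interferon genes rose, Ccl5 (2.58), Isg15 (1.22), Rsad2 (1.03), Cxcl10 (0.93) and Ifit1 (0.79), and the others were not called, with a list median of 0.21.

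TMPyP4 gave 2 higher and 16 lower among the 53 against Rtel1f/f Ad-GFP, the control it shares with Ad-Cre, where 16.6% of all tested genes were higher and 13.4% lower. The drug gave 10 higher and 2 lower against RTEL1 CA Ad-GFP, where 9.94% of all tested genes were higher and 7.07% lower. Tlr7, which passes the filter through RTEL1 CA libraries, is among the 53 there too and was not called by edgeR. None of the 18 calls with the shared control was made in the same direction with the other. The values that follow are against the shared control unless said otherwise. Tank (0.64) and Pcbp2 (0.36) rose. Those that fell included Irf7 (-1.99), Trim25 (-0.76), the sensor genes Ddx60 (-1.50) and Ifi204 (-0.71), the clearance gene Dnase2a (-0.68), and 10 of the 13 interferon genes, among them Usp18 (-2.26), Ccl5 (-1.65), Ifit3 (-1.18) and Isg15 (-1.13). The interferon list had a median of -0.68. Among the 5 death effectors edgeR called 0, with 3 at an unadjusted p under 0.05, and DESeq2 called 0. With RTEL1 CA Ad-GFP as the control, Tank (-0.22), Pcbp2 (0.17), Trim25 (0.10), Ddx60 (-0.06), Ifi204 (-0.47), Dnase2a (0.26), Usp18 (0.48) and Ifit3 (0.13) were not called, and Irf7 turned and was called higher (1.23, edgeR adjusted p 0.00685), as were Ccl5 (1.33) and Isg15 (0.63). Both genes called lower with that control, Adarb1 (-0.47) and Dhx9 (-0.35), had not been called with the other. Of the 13 interferon genes 7 rose with it, with a list median of 0.48.

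Ad-Cre and TMPyP4 set against each other left 6 of the 53 higher and 7 lower with Ad-Cre, beside 6.13% and 9.09% of all tested genes. Higher were Ccl5 (1.25), Cxcl10 (0.94), Adarb1 (0.50), Mb21d1 (0.37), Dhx9 (0.33) and Ripk3 (0.27). Among the lower ones were Stat2 (-0.51), Dnase2a (-0.42) and Rnaseh2a (-0.24). Of the 13 interferon genes 2 were higher, Ccl5 and Cxcl10, and 5 lower, with a list median of -0.31. In RTEL1 CA cells 1 of the 53 genes was called after Ad-Cre, the chemokine gene Ccl5, which rose (1.18, edgeR adjusted p 7.35e-04), where 0.525% of all tested genes rose, while 19 had an unadjusted p under 0.05 and DESeq2 called 3. RTEL1 CA Ad-GFP cells had 3 of the 53 higher and 22 lower than Rtel1f/f Ad-GFP, beside 22.6% and 22.1% of all tested genes, with 12 of the 13 interferon genes lower. Those 53 still include Ifnb1, and Tlr7, which passes the filter through RTEL1 CA libraries. Trf1f/f Ad-GFP cells had 29 of 52 genes higher and 12 lower, Ifnb1 left out, beside 30.3% and 24.5% of all tested genes, with 8 of 12 interferon genes higher and 2 lower. They had 30 of 51 higher and 10 lower than RTEL1 CA Ad-GFP, without Ifnb1 and Tlr7, which would not pass without RTEL1 CA libraries, beside 31.9% and 26.6%, with 10 of 12 interferon genes higher.

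To see which genes ran most like each sensor, log2 CPM was correlated over the 21 libraries. The Trf1f/f libraries form a cluster of their own, so that Pearson r is also given within the 15 libraries with floxed Rtel1 and the 6 Trf1f/f libraries. For Ddx58 the nearest gene was Parp12 (r 0.998, within the clusters 0.972 and 1.00), followed by Gbp3 and Trim21. Parp12 was also nearest to Zbp1 (0.996, within the clusters 0.904 and 0.997), before Bst2 and Trim34a. Ifih1 and Dhx58 were nearest to each other (0.997, within the clusters 0.837 and 0.998), with Rsad2 and Ddx60 next for Ifih1, and Ifit3b and Pydc3 for Dhx58.

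For Adar the nearest was Ifit3 (0.995, within the clusters 0.919 and 0.971), and Trim25 was also among the nearest. For Tlr3 it was Ifi204 (0.995, within the clusters 0.804 and 0.991), then Ifi202b and Ifi205. Trex1 ran most like Ogfr (0.990, within the clusters 0.928 and 0.988), Tcirg1 and Cpt1c, and Samhd1 most like Inpp1 (0.971, within the clusters 0.640 and 0.974), Zufsp and Pnp. Tmem173 was nearest to Smarca2 (0.971, within the clusters 0.869 and 0.795), and D17H6S56E-5 was also among the nearest (0.967, within the clusters 0.907 and 0.255). Mavs was nearest to Rnf10 (0.857, within the clusters 0.870 and 0.898), then Cdk18 (0.848, within the clusters 0.916 and 0.259) and Foxn1 (0.848, within the clusters 0.893 and 0.197), so that these last did not run closely with it within the Trf1f/f libraries. For the genes named here without values, r was at least 0.619 within the libraries with floxed Rtel1 and at least 0.936 within the Trf1f/f libraries. Among the 10 genes themselves, within the 15 libraries with floxed Rtel1, r was highest between Ddx58 and Zbp1, at 0.900, and lowest between Dhx58 and Samhd1, at -0.773.

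In the RefSeq annotation of build GRCm38.p6 the 10 genes are spread over the genome, with 4 on chromosome 2. These are Ifih1 at chr2:62595618-62646255, Mavs at chr2:131234063-131248025, Samhd1 at chr2:157097534-157135096 and Zbp1 at chr2:173206612-173218959. Ddx58 lies at chr4:40203777-40239825, Dhx58 at chr11:100694884-100704271, Tlr3 at chr8:45395665-45411075, Adar at chr3:89714469-89753455 and Trex1 at chr9:109057932-109059723. Tmem173, which RefSeq lists as Sting1, is at chr18:35733678-35740554. Trex1 is the most crowded of them. It starts 23 bases from Atrip, and a long noncoding readthrough RNA of both genes, Atrip-trex1, overlaps it. Atrip was looked up after its values were seen, and lay between 15.1 and 19.7 CPM in all 21 libraries, over which Trex1 ranged from 2.52 to 44.1 CPM.

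For 7 of the 10 genes the RefSeq promoter table holds a window of 300 bases, from 250 before to 50 after a transcription start, and with alternative starts these are 10 windows. Dhx58, Zbp1 and Tmem173 have no entry. Both strands were searched for the core of the interferon-stimulated response element, written GAAANNGAAA, which 3.44% of all 32851 promoters hold (1131), and for a quadruplex pattern of 4 runs of at least 3 G with 1 to 7 bases between them, which 18.6% hold (6110). Among the 7 genes, 2 had the response element core, Ddx58 and Ifih1, and 2 had the quadruplex pattern, Ddx58 and Trex1. The shares over all promoters count windows. Counted in that way, each motif was in 2 of the 10 windows, which for the quadruplex pattern is near the share over all promoters. In Ddx58 the core lies on the opposite strand at positions 3 to 12 after the start, and overlapping matches of the quadruplex pattern on the opposite strand reach from -45 to -7. In Ifih1 the core is on the gene's strand at positions 33 to 42. In the second of the Trex1 windows the pattern is on the gene's strand from -113 to -93. Counted by gene, 6 of the 10 genes of the interferon list that have an entry hold the core (Isg15, Ifit1, Ifit3, Rsad2, Cxcl10 and Stat2). A match describes letters in a window and is neither a bound site nor a cause.

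The windows of 3 genes are shown, Ddx58 and Ifih1 because they hold the core, and Mavs because its window holds neither motif. Of the genes with an entry, Tlr3, Samhd1 and Adar rose after Ad-Cre in Trf1f/f cells, as Ddx58 and Ifih1 did, and have no core, while Mavs was not called there and rose after Ad-Cre and after TMPyP4 against Rtel1f/f Ad-GFP. Each is written from 5′ to 3′ on the gene's strand, with matches in capitals. Ddx58 is read from the minus strand of chr4:40239776-40240075, Ifih1 from the minus strand of chr2:62646206-62646505 and Mavs from the plus strand of chr2:131233813-131234112, all in GRCm38.p6 from RefSeq.
Ddx58: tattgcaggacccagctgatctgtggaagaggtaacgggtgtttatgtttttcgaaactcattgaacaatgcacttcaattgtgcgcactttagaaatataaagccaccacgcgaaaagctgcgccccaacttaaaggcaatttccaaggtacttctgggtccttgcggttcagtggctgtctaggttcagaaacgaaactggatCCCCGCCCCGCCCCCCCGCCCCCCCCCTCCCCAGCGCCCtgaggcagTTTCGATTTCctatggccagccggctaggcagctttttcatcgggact
Ifih1: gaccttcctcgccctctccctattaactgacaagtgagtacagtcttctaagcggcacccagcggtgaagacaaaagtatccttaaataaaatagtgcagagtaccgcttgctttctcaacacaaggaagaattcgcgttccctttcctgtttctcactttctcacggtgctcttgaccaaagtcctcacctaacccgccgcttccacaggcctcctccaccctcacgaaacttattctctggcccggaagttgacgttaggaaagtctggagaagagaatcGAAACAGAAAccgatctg
Mavs: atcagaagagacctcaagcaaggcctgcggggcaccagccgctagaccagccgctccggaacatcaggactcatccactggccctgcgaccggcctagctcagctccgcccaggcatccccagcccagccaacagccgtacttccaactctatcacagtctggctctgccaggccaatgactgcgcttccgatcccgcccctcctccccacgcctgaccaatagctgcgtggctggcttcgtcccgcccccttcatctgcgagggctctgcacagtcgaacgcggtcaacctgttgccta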

How the data were processed

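The authors sequenced polyadenylated RNA of 21 MEF libraries and deposited expected counts and TPM of RSEM for RefSeq genes of mm10. The submitters' processing notes name cutadapt 1.9.1, STAR 2.5.2a, RSEM 1.3.0 and DESeq2 1.28.0. The deposited expected counts were all whole (0 of them were not) and were rounded to integers, and the deposited TPM was used to compare levels between genes and to find the most abundant marker.

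Genes were kept by filterByExpr by group, normalised by TMM and tested in R 4.3.3 with edgeR 4.0.16 (robust quasi-likelihood fit, 1 coefficient per group over all 21 libraries, 14 residual degrees of freedom, two-sided test, Benjamini-Hochberg adjustment over 13719 genes) in 10 comparisons at an adjusted p of at most 0.01. Log2 CPM used a prior count of 2, and confidence intervals are at 95%. Library totals ranged from 32069888 to 51938593 counts, and a gene with few counts is given with them. Groups were taken from the labels. The procedure was tested on simulated data.

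Each result was recomputed with DESeq2 1.42.0, with edgeR on DESeq2's size factors, without the low-count filter, on genes that reach 10 counts in every library, on the compared groups alone, blocked by replicate number, at a threshold of 0.05, and leaving out each library. RTEL1 CA Ad-GFP as control was added after seeing the data, also with replicate number as a block within the groups then compared. Replicate numbers come from the labels. Pairing was checked over 11840 genes (mean CPM of 1 or more) by subtracting each group's mean and correlating libraries that share a number across groups, and taken to hold where all 3 values were above 0.1. It held for Ad-Cre and Ad-GFP in RTEL1 CA cells (0.86, 0.84 and 0.42) and for Ad-Cre and TMPyP4 in Rtel1f/f cells (0.72, 0.76 and 0.41). It failed in the other 5 comparisons of groups, among them Ad-Cre and Ad-GFP in Trf1f/f cells (0.55, 0.36 and -0.10). For Rtel1f/f Ad-GFP it failed with Rtel1f/f Ad-Cre (-0.02, 0.06 and 0.13) and TMPyP4 (0.02, 0.05 and 0.13). For that group it also failed with RTEL1 CA Ad-GFP (0.03, 0.05 and 0.11) and Trf1f/f Ad-GFP (0.04, -0.06 and -0.09). With RTEL1 CA Ad-GFP as control it held for Rtel1f/f Ad-Cre (0.78, 0.81 and 0.20), TMPyP4 (0.78, 0.69 and 0.30) and Trf1f/f Ad-GFP (0.83, 0.36 and 0.26), and it failed between both Ad-Cre groups with floxed Rtel1 (0.74, 0.80 and 0.05). Differences of effects were not checked as such.

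Genes named were all 10 sensors, Rtel1 and Terf1, for each list and comparison up to 4 called genes with the largest change and list genes needed to say what a list holds, up to 3 genes with the highest Pearson r for each sensor, and markers. The lists were downstream signalling (11 genes), sensor regulators (8), other sensors (10), nucleic acid clearance (8), ZBP1 death effectors (5), interferon output (13) and markers of fibroblasts, macrophages, endothelium and epithelium. After seeing the data, list genes were left out of a count where fewer than 3 libraries outside the group in which they are high, or outside its line in comparisons between lines, reached the filter's level (0.232 CPM before normalisation). This was not done for Ifnb1, Lum and Fap among groups with floxed Rtel1, or for Tlr7 between Rtel1f/f and RTEL1 CA cells. Markers were also kept in differences of effects. The sensors and lists were chosen with earlier results of these data known. Figures and promoter searches used Python 3.11.15, NumPy 2.4.6 and matplotlib 3.10.9. Highly similar libraries were looked for, and no pair shared more than 2.36% of counts above 0.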

Additional observations from a re-analysis of the deposited data

Results flagged for a closer look

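The effect of Ad-Cre differed between cell lines in 14 of 30 tests of a difference of log2 fold changes, each made with edgeR's quasi-likelihood test, and p adjusted over all genes by Benjamini and Hochberg's method. Between Rtel1f/f and RTEL1 CA cells, where 12.8% of all tested genes were called higher and 12.3% lower, the effect was lower in Rtel1f/f cells for Adar (-0.55, SE 0.0925, adjusted p 1.63e-04), Ddx58 (-0.97, SE 0.115, adjusted p 5.91e-06), Ifih1 (-0.67, SE 0.179, adjusted p 0.00648) and Tmem173 (-0.49, SE 0.119, adjusted p 0.00375).

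Between Rtel1f/f and Trf1f/f cells, where the shares were 15.8% and 14.5%, it was lower in Rtel1f/f cells for Adar (-1.26, SE 0.0922, adjusted p 1.48e-08), Ddx58 (-1.46, SE 0.114, adjusted p 3.22e-08), Dhx58 (-1.78, SE 0.204, adjusted p 2.68e-06) and Ifih1 (-1.41, SE 0.171, adjusted p 5.24e-06). The same direction was found for Samhd1 (-0.48, SE 0.123, adjusted p 0.00403), Tlr3 (-1.67, SE 0.258, adjusted p 5.88e-05), Trex1 (-1.58, SE 0.393, adjusted p 0.00386) and Zbp1 (-3.02, SE 0.325, adjusted p 1.42e-06), and the opposite for Mavs (0.32, SE 0.0925, adjusted p 0.00998). Between Trf1f/f and RTEL1 CA cells, where they were 0.547% and 0.0729%, it was higher in Trf1f/f cells for Adar (0.70, SE 0.0920, adjusted p 6.18e-04). The first 13 of these differences rest on the Rtel1f/f Ad-GFP libraries. With RTEL1 CA Ad-GFP as the control of the Rtel1f/f cells, chosen after seeing the data, edgeR called 0 of the 10 sensors between Rtel1f/f and RTEL1 CA cells, with 3 at an unadjusted p under 0.05, and DESeq2 called 0, where 1.76% of all tested genes were higher and 2.54% lower. Ddx58 (0.24), Ifih1 (0.15) and Tmem173 (0.14) then turned and Adar gave -0.07, in what is then a direct comparison of both Ad-Cre groups. Between Rtel1f/f and Trf1f/f cells 4 of the 9 stayed called with that control, where 1.64% of all tested genes were higher and 2.73% lower, Adar (-0.78), Dhx58 (-0.99), Samhd1 (-0.62) and Tlr3 (-1.48), and Ddx58 (-0.24), Ifih1 (-0.59), Trex1 (-0.65), Zbp1 (-0.40) and Mavs (0.13) did not.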

How the results depend on the processing

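Of 1559 log2 fold changes under an alternative, 1356 kept their direction and their side of the threshold, 100 lost a call, 43 gained one and 60 turned. The cause was not tested. Zbp1 had no value under a filter of at least 10 counts in every library.

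With RTEL1 CA Ad-GFP as control, chosen after seeing the data, Ad-Cre in Rtel1f/f cells turned to 0.52 for Ddx58, 0.49 for Dhx58, 0.73 for Ifih1, -0.0349 for Samhd1, 0.0312 for Tlr3, 0.43 for Tmem173, 0.44 for Trex1 and 1.59 for Zbp1. TMPyP4 turned to 0.0749 for Adar, 0.64 for Ddx58, 0.10 for Ifih1, 0.11 for Tmem173, 0.30 for Trex1 and 1.68 for Zbp1. The difference between Rtel1f/f and RTEL1 CA cells turned to 0.24 for Ddx58, 0.11 for Dhx58, 0.15 for Ifih1, -0.0902 for Samhd1, 0.14 for Tmem173, 0.38 for Trex1 and 0.92 for Zbp1, and that between Rtel1f/f and Trf1f/f cells to 0.47 for Tmem173. With this control on both sides, the first difference is a direct comparison of Rtel1f/f Ad-Cre with RTEL1 CA Ad-Cre libraries. Sensors called came to 2 after TMPyP4, 0 for the first difference and 4 for the second. Genes called fell from 5902 to 1064 after Ad-Cre, from 4114 to 2333 after TMPyP4, from 3450 to 590 and from 4147 to 600 for the differences.

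In RTEL1 CA cells Adar turned to -0.00696 with DESeq2, -0.00579 with its size factors and -0.00401 without a filter, and in Trf1f/f cells Mavs turned to -0.00580, -0.00493 and -0.00980. DESeq2 called 1 sensor in RTEL1 CA cells and 3 in the difference between Trf1f/f and RTEL1 CA cells, where its size factors and no filter each called 2. Genes called with DESeq2 were 339 in place of 150 and 189 in place of 85.

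A fit of only the groups compared called 2 sensors after Ad-Cre in Rtel1f/f cells and 0 between Ad-Cre and TMPyP4. Genes called were then 0 in RTEL1 CA cells, 933 in place of 2088 between Ad-Cre and TMPyP4, 2195 between Rtel1f/f and RTEL1 CA cells and 11 between Trf1f/f and RTEL1 CA cells. An adjusted p of at most 0.05 called 1 sensor in RTEL1 CA cells and 5 between Trf1f/f and RTEL1 CA cells, with 416, 872, 3452, 5229 and 195 genes called in RTEL1 CA cells, Trf1f/f cells, Ad-Cre against TMPyP4 and the differences of RTEL1 CA from Rtel1f/f and Trf1f/f cells.

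With the replicate number as a block, Tmem173 was called between Ad-Cre and TMPyP4 (0.32, adjusted p 0.00688), and the block changed no other sensor's call in the comparisons where pairing held. Where it failed, the block called 3 sensors after Ad-Cre in Rtel1f/f cells, with Zbp1 lost (-1.02, adjusted p 0.0206), 7 after TMPyP4, with Tlr3 lost (-0.72, adjusted p 0.0249) and Trex1 gained (-0.65, adjusted p 0.00712), 8 in Trf1f/f cells, with Trex1 gained (1.09, adjusted p 6.41e-04), and 7 and 10 between the controls, with Trex1 gained in RTEL1 CA cells (-0.98, adjusted p 0.00181). For the differences, where pairing was not checked as such and failed in at least 1 of the comparisons they are made of, the block called 3, 9 and 2 sensors. It lost Ifih1 between Rtel1f/f and RTEL1 CA cells (-0.68, adjusted p 0.0130) and gained Dhx58 between Trf1f/f and RTEL1 CA cells (1.09, adjusted p 0.00770).

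The block was also used with RTEL1 CA Ad-GFP as control, again after seeing the data, in 4 comparisons, and in these it changed no sensor's call from those with that control and no block. The difference between Rtel1f/f and Trf1f/f cells was not run in this way. After Ad-Cre in Rtel1f/f cells it gave 0.52 for Ddx58, 0.51 for Dhx58, 0.74 for Ifih1, -0.0357 for Samhd1, 0.0155 for Tlr3, 0.43 for Tmem173, 0.43 for Trex1 and 1.61 for Zbp1, with 1187 genes called. After TMPyP4 it gave 0.0763 for Adar, 0.64 for Ddx58, 0.12 for Ifih1, 0.11 for Tmem173, 0.35 for Trex1 and 1.70 for Zbp1, with 2 sensors and 2380 genes called. Between both Ad-Cre groups with floxed Rtel1, where pairing failed, edgeR with the block called 0 sensors, with 3 at an unadjusted p under 0.05, where DESeq2, without a block, called 0, and 665 genes were called. The values were 0.24 for Ddx58, 0.12 for Dhx58, 0.15 for Ifih1, -0.0919 for Samhd1, 0.14 for Tmem173, 0.38 for Trex1 (adjusted p 0.276, without the block 0.623) and 0.92 for Zbp1.

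Leaving out 1 library at a time, sensors called ranged from 3 to 4 after Ad-Cre in Rtel1f/f cells, 5 to 7 after TMPyP4, 0 to 0 in RTEL1 CA cells, 7 to 7 in Trf1f/f cells, 1 to 2 between Ad-Cre and TMPyP4, 6 to 7 between the Rtel1f/f controls and 8 to 10 between the Trf1f/f and Rtel1f/f controls. For the differences they ranged from 2 to 4, 7 to 9 and 1 to 3. Genes called ranged from 4697 to 5761, 2466 to 4110, 52 to 149, 282 to 377, 1411 to 1666, 4860 to 6016 and 6640 to 7111 in the same comparisons, and from 2353 to 3690, 3021 to 4271 and 27 to 89 for the differences. Values that turned were in genes not called: Trex1 (-0.20 to 0.30) and Adar (-0.0575 to 0.0329) in RTEL1 CA cells, Mavs in Trf1f/f cells (-0.0274 to 0.0194), Samhd1 in the difference between Rtel1f/f and RTEL1 CA cells (-0.0172 to 0.10), and, between Ad-Cre and TMPyP4, Trex1 (-0.14 to 0.43) and Zbp1 (-0.33 to 0.11).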
